A study of Mus musculus with 2 samples.

Results

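Lipid-associated macrophages are tissue macrophages that take up, store and export lipid, and 8 genes known from them were followed here: Apoe, Trem2, Gpnmb, Lpl, Fabp5, Cd36, Abca1 and Plin2. The genes were chosen by name, and each matched 1 row of the 32285 genes in the count tables. None of the 8 served to name cells. All 8 had unique molecular identifiers (UMIs, counts of captured RNA molecules) in macrophages of both tumors, and all 8 had at least the 50 UMIs over both libraries that were set as the minimum for a comparison.

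The data were single-cell RNA counts from 2 libraries of subcutaneous tumors, 1 from wild-type (WT) and 1 from tight skin (TSK) mice, which carry an internal duplication of Fbn1 and develop fibrosis of the skin. All hosts were C57BL/6 females, 6 to 8 weeks old, and all received the same syngeneic SO ovarian cancer line, which lacks p53 and carries HRAS and MYC. Tumors of several mice per genotype were pooled, digested with enzymes and depleted of red and dead cells, with no sort for a cell type. Each genotype is a single pooled library, so WT and TSK values are set side by side without a test, and genotype, mouse, tumor and library preparation cannot be told apart. Values in brackets below are 95% intervals, exact for Poisson counts, ratios of counts or binomial shares, and they cover counting error only.

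The WT library held 2332 barcodes with 21225411 UMIs and the TSK library 4436 barcodes with 48296765 UMIs, and 1442 WT and 2961 TSK cells passed the filters on genes, UMIs and mitochondrial UMIs after 263 barcodes present in both libraries were left out. A cell was given a lineage when markers of that lineage held at least 3 of its UMIs, over at least 2 genes, and at least 2 times as many as any other lineage. By this rule 169 WT and 359 TSK cells were macrophages, and 474 WT and 811 TSK cells stayed unnamed. C1qa, a complement gene of macrophages, and Adgre1, which encodes the macrophage antigen F4/80, were among the markers that named macrophages. Their presence is thus no test of the label. C1qa had a UMI in 88.8% of WT and 93.3% of TSK macrophages, and Adgre1 in 68.0% and 62.4%. Depth differed between the libraries, with a median of 11821 UMIs per WT and 7485 per TSK macrophage. Levels are given as CPM, the UMIs of a gene per 1000000 UMIs of the same cells. Fbn1 stood at 1414 CPM in WT and 1421 in TSK fibroblasts, and counts per gene cannot show the duplication.

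The 8 genes cover successive steps of lipid handling. Apoe is a secreted apolipoprotein that carries lipid between cells, and Trem2 is a surface receptor for lipids and apolipoproteins that signals through the adaptor Tyrobp. Lpl hydrolyses triglyceride in lipoproteins, Cd36 takes up fatty acids and oxidised lipoprotein, and Fabp5 binds fatty acids in the cell. Plin2 coats lipid droplets, Abca1 exports cholesterol under control of the liver X receptors, and Gpnmb is a membrane glycoprotein found in lysosomes of lipid-laden macrophages.

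The genes are scattered over the mouse genome, with only Abca1 and Plin2 on the same chromosome. In the GENCODE annotation of GRCm38 (mm10, the build of the files), Apoe spans chr7:19696109-19699188 on the minus strand, Trem2 spans chr17:48346401-48354147 on the plus strand and Gpnmb spans chr6:49036546-49070929 on the plus strand. Lpl (chr8:68880491-68907448) and Fabp5 (chr3:10012548-10016607) lie on the plus strand. Cd36 (chr5:17781690-17888801), Abca1 (chr4:53030787-53159895) and Plin2 (chr4:86648386-86670060) lie on the minus strand. Reads came from the 3′ ends of transcripts, so levels were compared between cells for 1 gene at a time and not between genes.

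The 250 bases before the start of transcription in RefSeq (GRCm38.p6) are printed 5′ to 3′ for Apoe, Trem2 and Abca1, which were highest in macrophages in both tumors, and for Gpnmb, which differed most between the 2 libraries. Capitals mark matches to 3 motifs, searched on both strands: the E-box CACGTG, the AP-1 site TGACTCA, and TGACCNNNNNTAACC, a form of the element that liver X receptors bind.
Apoe (chr7:19699189-19699438, minus strand): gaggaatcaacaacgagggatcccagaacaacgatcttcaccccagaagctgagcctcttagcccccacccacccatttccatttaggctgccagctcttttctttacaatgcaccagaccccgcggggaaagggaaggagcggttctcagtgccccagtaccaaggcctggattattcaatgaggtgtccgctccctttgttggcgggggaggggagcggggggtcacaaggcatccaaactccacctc
Trem2 (chr17:48346151-48346400, plus strand): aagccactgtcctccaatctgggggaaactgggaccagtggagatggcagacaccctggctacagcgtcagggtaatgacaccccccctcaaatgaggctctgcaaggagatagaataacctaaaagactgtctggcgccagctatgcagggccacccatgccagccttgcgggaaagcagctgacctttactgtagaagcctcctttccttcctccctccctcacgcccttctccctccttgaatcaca
Abca1 (chr4:53159896-53160145, minus strand): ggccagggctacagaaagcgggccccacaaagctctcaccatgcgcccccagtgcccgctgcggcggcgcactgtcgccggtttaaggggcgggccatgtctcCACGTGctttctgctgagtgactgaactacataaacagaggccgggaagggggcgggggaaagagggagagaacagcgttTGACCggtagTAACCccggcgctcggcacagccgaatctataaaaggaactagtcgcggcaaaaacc
Gpnmb (chr6:49036268-49036517, plus strand): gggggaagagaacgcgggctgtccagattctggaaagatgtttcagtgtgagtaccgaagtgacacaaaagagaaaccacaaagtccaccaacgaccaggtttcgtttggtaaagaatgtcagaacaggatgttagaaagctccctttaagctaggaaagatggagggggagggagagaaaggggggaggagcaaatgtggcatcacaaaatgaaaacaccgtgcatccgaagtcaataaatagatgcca
RefSeq promoters were at hand for 6 of the 8 genes, all but Lpl and Fabp5, and Abca1 was the only 1 of the 6 with a match. For the liver X receptor element only this 1 form was searched, so genes without a match may hold another form. The Abca1 match thus describes 1 sequence and does not set Abca1 apart from the other genes. In Abca1 the E-box lay 147 to 142 bases and the liver X receptor element 67 to 53 bases before the start, and the matches do not overlap. Of 32851 promoter windows of this length, 6.02% held the E-box, 4.46% the AP-1 site and 0.0457% the liver X receptor element. The Gpnmb window ends at the RefSeq start, which lies 28 bases from the nearest start in GENCODE.

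Apoe and Trem2, the carrier and the receptor, were macrophage genes in both tumors. Apoe stood at 3786 CPM (3707 to 3866) in WT and 5320 (5236 to 5405) in TSK macrophages. Monocytes came next, at 459 and 720. Trem2 stood at 132 (118 to 148) in WT and 208 (191 to 225) in TSK macrophages, again with monocytes next at 21.6 and 85.0. For both genes the intervals of macrophages and monocytes were apart in each library. Macrophages held 74.96% of all Apoe UMIs in WT and 77.2% in TSK, and 76.5% and 83.5% of all Trem2 UMIs, while they held 13.4% and 6.26% of the UMIs of all genes. T cells had no Trem2 UMI in either library (0 of 276 and 0 of 184 cells).

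Abca1, the cholesterol exporter, was highest in macrophages too, but was also seen in other lineages. Its level was 789 CPM (753 to 826) in WT and 996 (959 to 1033) in TSK macrophages. Monocytes (290.1 and 262), neutrophils (230.1 and 214) and endothelial cells (238 and 133) followed, with overlapping intervals among neighbours except between TSK neutrophils and endothelial cells. The 4 WT B cells stood at 377, from 10 UMIs in 1 cell. Macrophages held 51.4% of its UMIs in WT and 69.2% in TSK.

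Lpl, the lipase, was highest in fibroblasts in both tumors. Fibroblasts stood at 271 CPM (255 to 288) in WT and 235 (220 to 252) in TSK, and macrophages followed at 113 (99.7 to 128) and 131 (118 to 145). WT endothelial cells, at 91.9 (75.1 to 111), overlapped WT macrophages. Fibroblasts held 68.0% of the Lpl UMIs in WT and 48.0% in TSK, and macrophages 16.9% and 20.7%.

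Plin2, the droplet coat protein, was highest in neutrophils, at 561 CPM (429 to 721) in 31 WT cells and 477 (427 to 531) in 206 TSK cells. In WT this rests on few cells, as 12 of the 31 had a UMI, 5 held 50 of the 61 UMIs and the median cell had none, whereas in TSK 112 of 206 had one. Macrophages were next, at 246 (226 to 267) and 383 (361 to 407). In WT they overlapped monocytes (236), whereas in TSK monocytes were lower (197). Cancer cells stood at only 62.1 and 47.2, but 921 cancer cells in the TSK library held 37.1% of its Plin2 UMIs.

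Fabp5, the intracellular carrier, was found in nearly every lineage. In WT the highest levels were in 10 dendritic cells (697) and 5 mural cells (535), then in macrophages at 454 CPM (427 to 482). In TSK they were in 18 mural cells (851), then in macrophages at 662 (633 to 693) and 10 dendritic cells (503), whose intervals overlapped. Cancer cells stood at 241 in WT and 397 in TSK, and held 59.2% of the TSK Fabp5 UMIs. T cells were low, at 30.7 and 67.3.

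Cd36 and Gpnmb did not keep the same order of lineages in the 2 tumors. Cd36, the fatty acid receptor, was highest in WT endothelial cells, at 997 CPM (940.0 to 1057), far above WT macrophages at 52.8 (43.8 to 63.1). In TSK, macrophages at 100.3 (89.1 to 113) and endothelial cells at 86.3 (64.8 to 113) overlapped. Gpnmb was low in every WT lineage, with 18.9 in monocytes from 2 cells, 12.2 in fibroblasts and 4.37 (2.09 to 8.03) in macrophages. In TSK it was highest in macrophages, at 67.8 (58.6 to 78.1), with fibroblasts at 27.6 (22.5 to 33.5) and neutrophils at 18.8.

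**Figure D1:**
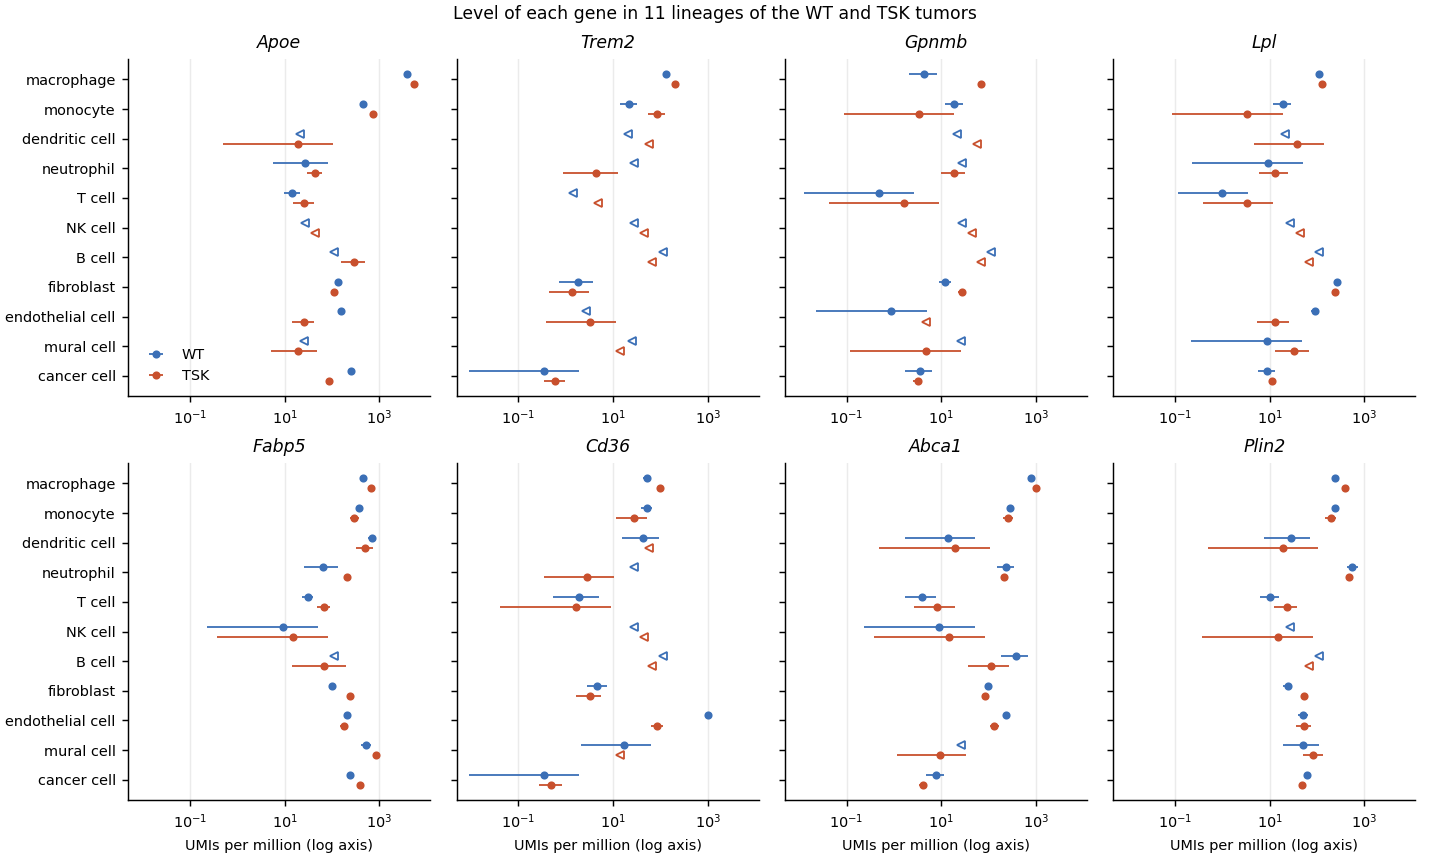
Level of each of the 8 genes in CPM (log axis) by lineage in the WT and the TSK library; points are UMIs summed over the cells of a lineage, bars are 95% Poisson intervals, and open triangles stand at the level 3 UMIs would give where none was seen. Apoe, Trem2 and Abca1 were highest in macrophages in both libraries, Lpl in fibroblasts and Plin2 in neutrophils, and the endothelial Cd36 level was 997 in WT and 86.3 in TSK.

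Genes with levels most similar to each of the 8 over 15 lineage samples (7 of WT and 8 of TSK, at least 20 cells each) were found among 11282 genes by Pearson's r of log2 CPM. They were Pepd (0.93), Dnase2a and Lgmn for Apoe, Clec10a (0.98), Kcnk13 and F13a1 for Trem2, and Wdfy2 (0.91) and Pxn for Abca1. They were Vcam1 (0.94), Igf1 and Gstt1 for Lpl, Atp6v1a (0.98), Sh2b2 and Fnip2 for Plin2, and Nos1ap (0.92), Zfp516 and Gpx1 for Fabp5. For Cd36 they were Pparg (0.92), a nuclear receptor for fatty acids, Parvb and Scarf1, and for Gpnmb 5033421B08Rik (0.77) and Aifm2 (0.77) were among them. The points share 2 libraries, and these values are descriptions.

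The levels in WT and TSK macrophages were then set side by side. All 8 genes were higher in TSK, though 67.3% of the 7757 genes with at least 50 UMIs in macrophages were also higher there. The median log2 ratio of TSK over WT was 0.59 for the 8 genes and 0.18 for all genes. Of the 8 genes, 1 was higher by at least 2-fold, against 4.82% of all genes, and 0 were lower by at least 2-fold, against 1.33%. At 1.5-fold, 4 of the 8 were higher (Gpnmb, Cd36, Trem2 and Plin2), against 17.7% of all genes. A further setting kept only the 21 WT and 93 TSK macrophages without a T cell, neutrophil, fibroblast, endothelial or cancer cell marker UMI. The median was then 0.17 over the 8 genes and 0.08 over the 2083 genes that reached 50 UMIs in these cells. Markers of the other lineages were not screened.

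Gpnmb was the gene past 2-fold. It had 10 UMIs in WT and 194 in TSK macrophages, a ratio of 15.5 (8.27 to 32.9) or 3.96 on the log2 scale, at the 99.9th percentile of the genes compared. The UMIs came from 7 of 169 WT and 42 of 359 TSK cells, with at most 3 UMIs in a WT and 22 in a TSK cell. The log2 ratio was between 2.28 and 4.30 under every one of 10 other ways of choosing, weighting or scaling the cells.

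Trem2, with 303 and 594 UMIs, had a log2 ratio of 0.65 (0.45 to 0.85), and Apoe, with 8670 and 15218 UMIs, of 0.49 (0.45 to 0.53). The ratio of Trem2 lay between 0.47 and 1.03 and that of Apoe between 0.31 and 0.86 under the same 10 alternatives. Abca1, with 1807 and 2848 UMIs, had a log2 ratio of 0.34 (0.25 to 0.42), which lay between 0.15 and 0.57. These 3 genes, the most macrophage-centred of the 8, stayed above 0 in each of these settings, as did Gpnmb and Fabp5. Among the genes compared, Trem2 stood at percentile 85.3, Apoe at 76.5 and Abca1 at 64.2.

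Cd36 had 121 and 287 UMIs and a log2 ratio of 0.93 (0.61 to 1.24), which did not hold in all settings. It was -0.012 without cells over 10000 UMIs, the upper limit that the study itself set, and -0.0063 when each cell counted equally. Plin2, with 564 and 1096 UMIs, had 0.64 (0.49 to 0.79). It had 0.04 without cells over 10000 UMIs. Over the cells without a T cell, neutrophil, fibroblast, endothelial or cancer cell marker UMI it had -0.34. Fabp5, with 1039 and 1894 UMIs, had 0.55 (0.44 to 0.66), but 0.03 over those cells. Lpl, with 259 and 374 UMIs, had 0.21 (-0.02 to 0.44), an interval that includes 0, and it ranged from -1.64 to 0.61.

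Marker UMIs of other lineages in the named macrophages moved between the libraries as well. The 7 cancer cell markers summed to 7.86 CPM in WT and 114 in TSK macrophages. In the cancer cells themselves Gpnmb stood at 3.51 and 3.16, Fabp5 at 241 and 397, Apoe at 247 and 86.7 and Plin2 at 62.1 and 47.2. In the macrophages the 7 endothelial markers summed to 227 and 81.1 and the 5 monocyte markers to 548 and 287. Of these lists, 5 of 7 cancer cell markers were seen in each library, 4 of 7 endothelial markers in WT and 6 of 7 in TSK, and 5 of 5 monocyte markers in both. The T cell, fibroblast and neutrophil lists summed to at most 75.2 in either library. The part of these marker UMIs in the ratios was not tested beyond the setting without T cell, neutrophil, fibroblast, endothelial or cancer cell marker UMIs. That setting did not leave out cells with monocyte marker UMIs.

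**Figure D2:**
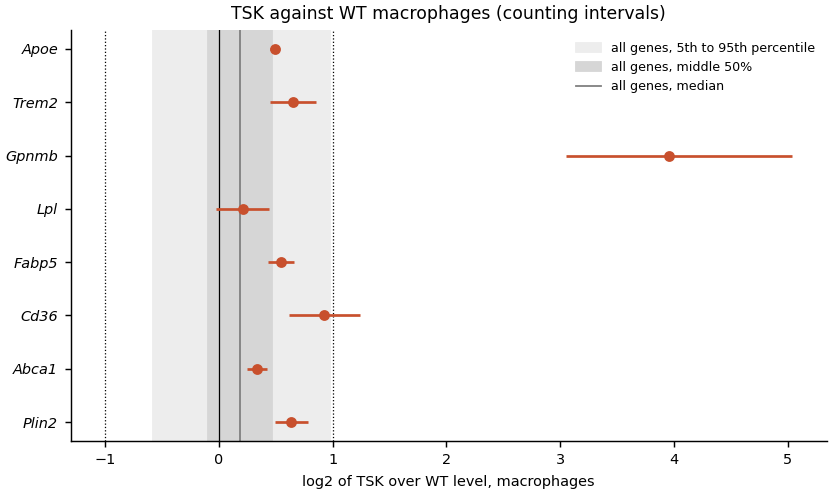
Log2 ratio of TSK over WT in macrophages for each of the 8 genes, with 95% counting intervals, over grey bands for the middle 50% and the 5th to 95th percentile of all genes compared and dotted lines at 2-fold. Gpnmb, at 3.96, stands far from the other 7, which lie between 0.21 and 0.93.

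The genes were unevenly spread over macrophages. Apoe and Abca1 were broad: the median was 21.8 UMIs of Apoe per 10000 in WT and 39.7 in TSK cells, and 6.81 and 7.85 of Abca1. The median was 1.81 and 2.17 for Plin2, 0.514 and 2.01 for Fabp5 and 0.574 and 1.04 for Trem2. Gpnmb, Lpl and Cd36 had a median of 0 in both libraries. The 10% of cells with the most UMIs of a gene, 17 in WT and 36 in TSK, held 29.2% and 32.4% of the Abca1 UMIs, but 93.4% and 89.6% of those of Lpl and 86.8% and 90.9% of those of Cd36.

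Since depth sets how many cells show a UMI, each cell was thinned to 1000 UMIs, which left 165 WT and 337 TSK macrophages. Apoe was then seen in 69.7% (62.1 to 76.6) of WT and 82.2% (77.7 to 86.1) of TSK macrophages, and Fabp5 in 20.6% (14.7 to 27.6) and 30.3% (25.4 to 35.5). The intervals for Apoe were apart and those for Fabp5 overlapped. Abca1 was seen in 50.3% and 55.8%, Plin2 in 28.5% and 25.5% and Trem2 in 14.5% and 17.8%, all with overlapping intervals. Lpl (5.45% and 6.53%), Cd36 (4.85% and 5.34%) and Gpnmb (1.21% and 3.26%) were rare at this depth. T cells, which should lack most of these genes, had Apoe in 1.45% of WT and 4.42% of TSK cells, Fabp5 in 0% and 5.52% and Trem2 in none, where 0 of 276 and 0 of 181 cells allow up to 1.09% and 1.66%.

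Without thinning, the shares were 87.6% and 92.5% for Apoe, 86.4% and 85.8% for Abca1, 79.9% and 71.9% for Plin2, 54.4% and 61.8% for Fabp5 and 54.4% and 57.1% for Trem2. They were 17.8% and 19.2% for Lpl, 18.9% and 16.2% for Cd36 and 4.14% and 11.7% for Gpnmb. T cells at a median of 6712 UMIs in WT and 3117.5 in TSK had Apoe in 8.33% and 8.70% and Fabp5 in 15.6% and 14.7%. With 158 WT and 311 TSK macrophages thinned to 2000 UMIs, all 8 shares were higher in TSK. That depth left out 11 WT and 48 TSK macrophages. No such share over all genes is set beside this, though by level 67.3% of genes were higher in TSK macrophages. The intervals were apart for Apoe, at 75.3% (67.8 to 81.8) and 90.4% (86.5 to 93.4), and for Gpnmb, at 0.633% (0.016 to 3.48) from 1 cell and 6.75% (4.23 to 10.1) from 21 cells. They overlapped for Trem2 (18.4% and 28.3%), Fabp5 (34.2% and 45.7%), Abca1 (67.7% and 77.5%), Lpl (8.23% and 12.5%), Cd36 (6.96% and 10.3%) and Plin2 (36.1% and 45.0%), whose order was the other way at 1000 UMIs.

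**Figure D3:**
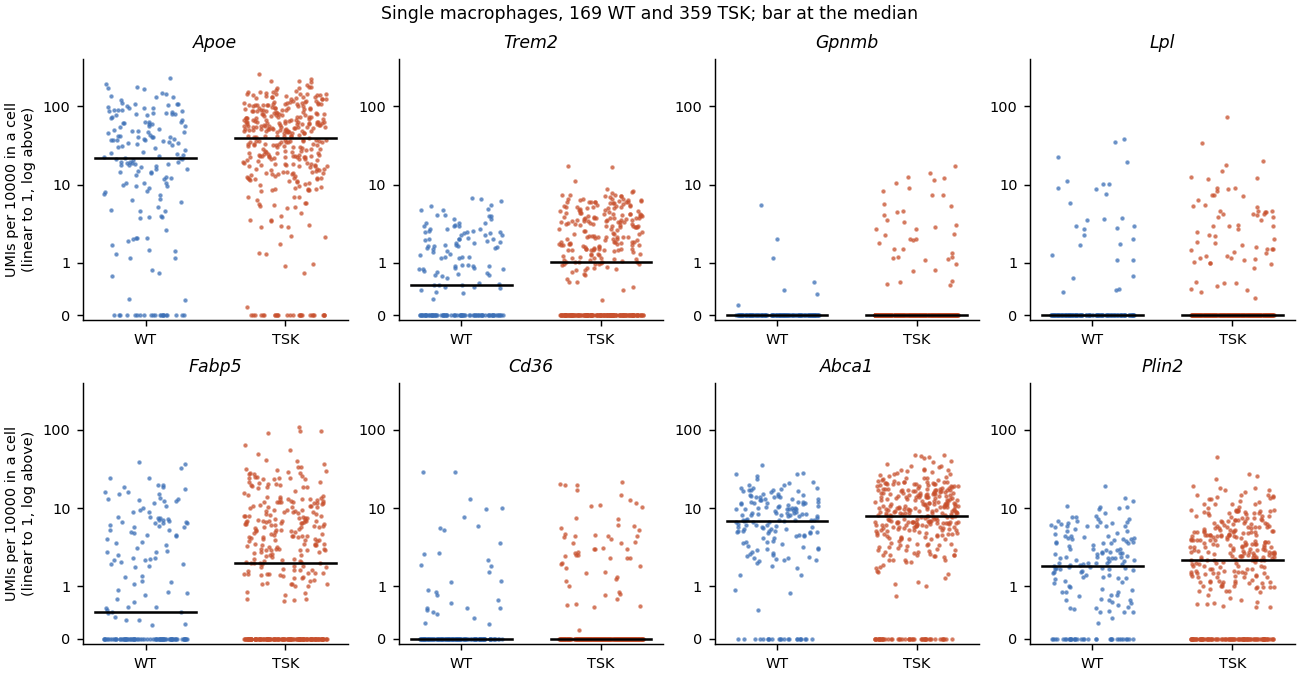
UMIs per 10000 in each macrophage (points; axis linear up to 1 and logarithmic above) for the 8 genes in the WT and the TSK library, with a bar at the median. Apoe and Abca1 were spread over most cells, and Gpnmb, Lpl and Cd36 had a median of 0, with a tail of positive cells that is longer for Gpnmb in TSK.

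Few of the 8 genes were seen together in macrophages thinned to 2000 UMIs, a depth that limits how many can be seen. At 2000 UMIs per cell, the median macrophage had UMIs of 2 of the 8 genes in WT and of 3 in TSK, no cell of either library had all 8, and 1 TSK cell had 7. Spearman correlations over these cells were weak, from -0.26 to 0.38 with a median of 0.04 over the 28 pairs in WT, and from -0.08 to 0.39 with a median of 0.08 in TSK. The pairs with the highest values were Trem2 and Fabp5 in WT (0.38) and Gpnmb and Fabp5 in TSK (0.39). All cells of 1 library share its free RNA and preparation, and in counts this sparse these values are descriptions.

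Macrophages were split by genes outside the set. Cells with UMIs of at least 2 of Folr2, Lyve1 and Cd163, markers of resident tissue macrophages, numbered 10 in WT and 65 in TSK, or 5.92% (2.87 to 10.6) and 18.1% (14.3 to 22.5). Of the rest, 90 WT and 189 TSK cells had at least 10 UMIs of Arg1 per 10000 and were called Arg1-high, and 69 and 105 were Arg1-low. Arg1 encodes arginase-1, an enzyme of tumor-infiltrating macrophages. The split cuts a continuous range. Resident-marker cells had the highest medians of UMIs (19200 and 9022) and Arg1-low cells the lowest (8688 and 4640), and the part of depth in the split was not tested.

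The groups ranked differently from gene to gene. Apoe was highest in resident-marker cells, at 7419 CPM in WT and 7798 in TSK, against 3554 and 4798 in Arg1-high and 3331 and 4310 in Arg1-low cells. The log2 ratio of TSK over WT was 0.07 (-0.02 to 0.16) in the resident-marker cells, 0.43 (0.38 to 0.48) in the Arg1-high and 0.37 (0.29 to 0.45) in the Arg1-low cells. Leaving the resident-marker cells out changed the Apoe ratio over all macrophages from 0.49 to 0.42. Abca1 was more even, between 704 and 982 in WT and between 873 and 1186 in TSK, with ratios of 0.27 to 0.31.

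Trem2 and Fabp5 were highest in Arg1-high cells in both libraries, and Gpnmb in TSK. Fabp5 stood at 645 and 989 there, against 116 and 264 in Arg1-low cells. Trem2 stood at 173 and 260, against 65.5 and 125. Gpnmb had 9 UMIs in 90 WT and 185 in 189 TSK Arg1-high cells, 6.31 (2.89 to 12.0) against 113 (97.3 to 131) CPM, and thus 185 of its 194 TSK UMIs came from that group. The other groups had 0 and 3 UMIs (resident-marker) and 1 and 6 UMIs (Arg1-low).

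Lpl and Cd36 went opposite ways in different groups. Lpl was lower in TSK in Arg1-low cells, with 177 and 70 UMIs or 258 and 112 CPM, a log2 ratio of -1.20 (-1.62 to -0.79). It was higher in TSK in Arg1-high cells (0.75, 0.26 to 1.24) and in resident-marker cells (1.12, 0.53 to 1.75). A few cells held many of these UMIs: 1 cell had 22 of the 27 WT and 1 cell 86 of the 198 TSK UMIs in resident-marker cells, 1 cell had 37 of the 55 WT UMIs in Arg1-high cells, and 4 cells had 131 of the 177 WT UMIs in Arg1-low cells. Without the top cell of each library the 3 log2 ratios of Lpl were -1.06 in Arg1-low, 2.18 in Arg1-high and 2.53 in resident-marker cells. Cd36 likewise was lower in Arg1-low cells, with 53 and 18 UMIs and a log2 ratio of -1.42 (-2.28 to -0.62), and higher in Arg1-high cells, with 68 and 195 UMIs and a ratio of 1.32 (0.92 to 1.74). Without the top cell of each library these were -1.47 and 1.49. The 10 WT resident-marker cells had no Cd36 UMI and the 65 TSK cells had 74. The differences between groups in these ratios were not tested. Plin2 differed least between the groups in WT (237 to 265), and its ratio was 0.88 (0.69 to 1.07) in Arg1-high and 0.15 (-0.15 to 0.46) in Arg1-low cells.

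**Figure D4:**
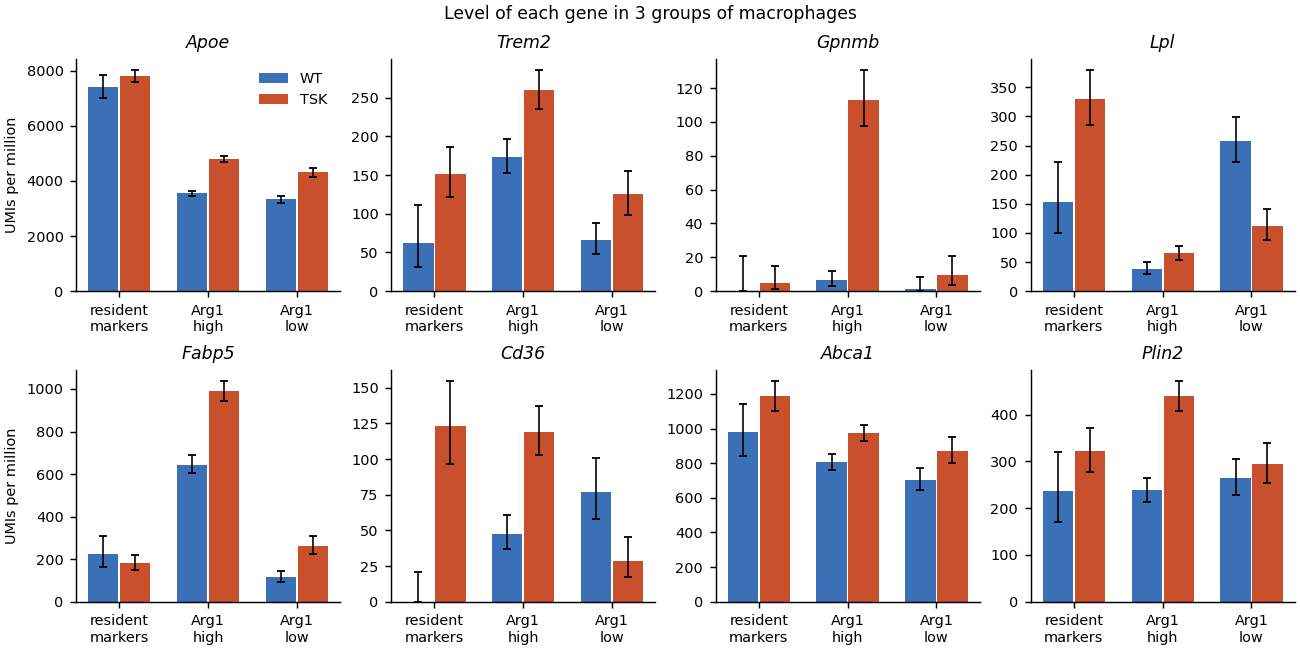
Level of each of the 8 genes (bars, CPM, from 0) in resident-marker, Arg1-high and Arg1-low macrophages of the WT and the TSK library, with 95% Poisson intervals. Apoe was highest in resident-marker cells, Trem2 and Fabp5 in Arg1-high cells, and Lpl in Arg1-low cells was 258 in WT and 112 in TSK.

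Outside macrophages, and among genes past the minimum of 50 UMIs, the 3 ratios farthest from 0 were those of Cd36, Lpl and Apoe in endothelial cells, 63 in WT and 53 in TSK. Cd36 had 1129 UMIs in WT and 54 in TSK, a log2 ratio of -3.53 (-3.95 to -3.14). Lpl had 104 and 8 UMIs (-2.84), Apoe 179 and 16 (-2.63) and Abca1 269 and 83 (-0.84). Without cells over 10000 UMIs the Abca1 ratio was -0.16. Fabp5 (-0.23) and Plin2 (0.04) had intervals that include 0. Of the 6 genes with at least 50 UMIs in these cells, 3 were lower in TSK by at least 2-fold, against 6.13% of all 4831 genes, and 0 were higher, against 13.1%.

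In the same cells Fabp4, a fatty acid carrier of capillary endothelium, had 4608 and 734 UMIs, a log2 ratio of -1.79 (-1.91 to -1.68), and was looked at after the Cd36 values were seen. Gpihbp1, which holds Lpl at the capillary wall, was not lower (0.41, 0.25 to 0.57). The endothelial markers had served to name these cells, so they are no independent reference. Of them Cdh5 (-0.12), Pecam1 (0.08) and Tie1 (-0.18) had intervals that include 0, while Flt1 (1.06), Egfl7 (0.99), Emcn (0.89) and Kdr (0.77) were higher in TSK. After thinning to 2000 UMIs, Cd36 was seen in 54.0% (40.9 to 66.6) of 63 WT and 8.16% (2.27 to 19.6) of 49 TSK endothelial cells. Without thinning it was seen in 46 of 63 and 7 of 53. A single TSK cell held 39 of the 54 UMIs, and without the top cell of each library the ratio was -5.22.

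**Figure D5:**
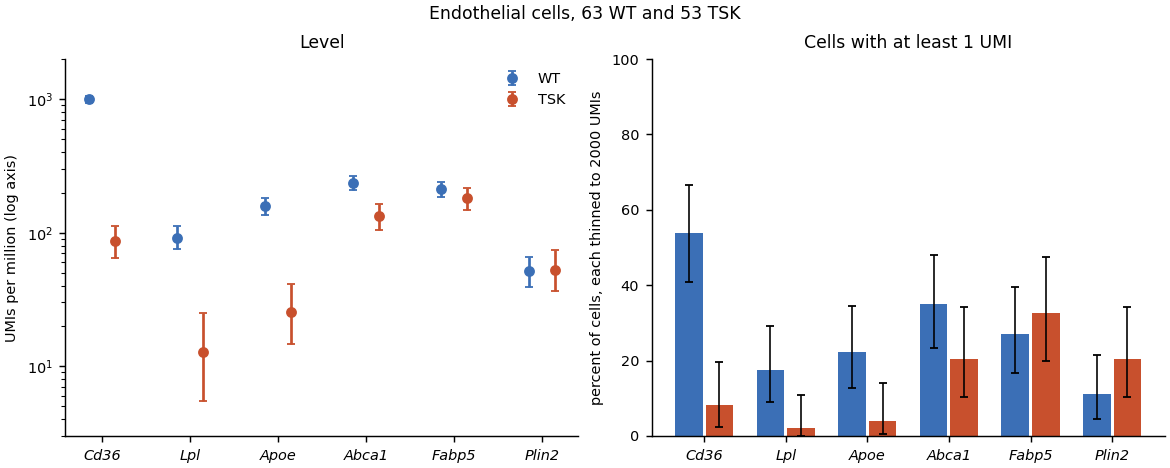
Left, level in CPM (log axis, 95% Poisson intervals) of 6 genes in endothelial cells of the WT and the TSK library; right, percent of these cells with a UMI after thinning to 2000 UMIs, with 95% binomial intervals. Cd36, Lpl, Apoe and Abca1 were lower in TSK on the left, and Cd36 was seen in 54.0% of WT and 8.16% of TSK cells.

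Fibroblasts, 171 in WT and 282 in TSK, had higher summed levels of 3 of the genes in TSK. The log2 ratio was 1.30 (1.12 to 1.48) for Fabp5, with 376 and 890 UMIs, 1.17 (0.66 to 1.70) for Gpnmb, with 47 and 102, and 1.14 (0.78 to 1.51) for Plin2, with 93 and 197. The top 5 cells held 59.3% of the WT and 38.8% of the TSK Fabp5 UMIs. The shares of cells with a UMI were 29.2% and 36.2% for Fabp5, 18.7% and 14.2% for Gpnmb and 35.1% and 33.0% for Plin2. Median depth was 22108 and 10990.5 UMIs. At least 2-fold higher values were found for 11.1% of the 9526 genes compared in fibroblasts and lower ones for 3.36%. Lpl (-0.20) and Apoe (-0.27) were lower by less than 2-fold, and the interval of Abca1 (-0.18) includes 0.

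Cancer cells, 83 in WT and 921 in TSK, had a lower summed level of Apoe in TSK, 247 against 86.7 CPM, a log2 ratio of -1.51 (-1.63 to -1.39), where 7.11% of 12246 genes were lower by at least 2-fold. The share of cells with an Apoe UMI was not lower, at 28 WT cells (33.7%) and 358 TSK cells (38.9%). Median depth was 34665 and 28587 UMIs. Fabp5 was higher (0.72, 0.61 to 0.84), below the 2-fold mark that 8.06% of genes passed. Abca1 (-0.94) and Plin2 (-0.40) were lower, and the intervals of Gpnmb and Lpl include 0. The cancer cells differed in make-up: of 22 clusters, cluster 0, led by Krt18 and Areg, held 55.4% of WT and 35.2% of TSK cancer cells, cluster 5, led by Ptn and Mest, 7.23% and 19.3%, and cluster 6, led by histone genes, 3.61% and 24.1%. Its part in these ratios was not tested. In monocytes, 122 in WT and 71 in TSK, Apoe was higher (0.65, 0.41 to 0.89), and Fabp5, Cd36, Abca1 and Plin2 had intervals that include 0. None of these 5 genes was past 2-fold, against 3.89% of 3653 genes higher and 4.38% lower. Among neutrophils Fabp5 had 7 UMIs in 31 WT and 145 in 206 TSK cells (1.70, 0.62 to 3.04), with 82 of the 145 in 5 cells, where 34.5% of 2324 genes were higher and 16.6% lower by at least 2-fold. In T cells Fabp5 had 63 and 41 UMIs (1.13, 0.53 to 1.72), where 2.88% of 5320 genes were higher and 2.01% lower by at least 2-fold.

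The other genes of the lipid pathways were followed in macrophages through 10 lists of 99 genes in all, of which 80 had at least 50 UMIs. By at least 2-fold, 4 of the 80 were higher and 0 lower in TSK, against 4.82% and 1.33% of all genes, and their median log2 ratio was 0.14, close to the 0.18 of all genes. The list of other genes known from lipid-associated macrophages had the highest median, 0.43 over 14 genes. In it Ctsd, a lysosomal protease, stood at 765 CPM in WT and 1758 in TSK (1.20, 1.12 to 1.28), and Itgax, the integrin CD11c, at 81.2 and 42.0 (-0.95, -1.30 to -0.61). Ccl6, a chemokine, was also past 2-fold (779 and 1564).

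The list of signalling partners and relatives of Trem2 had a median of -0.39 over 9 genes, with 4 above and 5 below 0. The signalling partners Hcst (0.57), Syk (0.42), Tyrobp (0.23, 0.13 to 0.32) and Inpp5d (0.04) were the 4 above 0. Below 0 were the phospholipase Plcg2 (-0.39) and the related receptors Trem1 (-0.45), Treml2 (-0.76), Treml4 (-0.82) and Trem3 (-0.87). Among fatty acid carriers and activating enzymes (median 0.30 over 6 genes), Fabp4 had 0 UMIs in WT and 56 in TSK macrophages, from 21 cells, which is at least 14.9-fold higher with the WT count set at 3 over the group, and Acsl3 was lowest at -0.09. Transcription factors had a median of -0.14 over 8 genes, from Pparg (-0.29, -0.88 to 0.30) to Rxra, the shared partner of lipid-sensing nuclear receptors, with 29 and 73 UMIs (1.01, 0.37 to 1.68).

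The remaining lists lay near the median of all genes. Cholesterol efflux and liver X receptor genes had a median of 0.05 over 9 genes, from Srebf1 (-0.43) to Nr1h3 (0.23), which encodes a liver X receptor. Lipid droplet genes had 0.05 over 9 genes, from Dgat2 (-0.54), which makes triglyceride, to Hilpda (0.89), a hypoxia-induced droplet protein. Sterol synthesis genes had -0.09 over 7, from Idi1 (-0.62) to Fdps (0.75), and fatty acid oxidation genes 0.19 over 7, from Hadhb (-0.58) to Acadl (0.73). Lipoprotein genes had 0.32 over 4, with Apoc2 highest (0.45), and scavenger receptors 0.14 over 7, from Olr1 (-0.39) to Stab1 (0.81). Among genes with at least 50 UMIs, none in these 6 lists was past 2-fold in either direction, while Marco, a scavenger receptor with 1 and 47 UMIs, and Scd1, a fatty acid desaturase with 5 and 21, stood under that minimum.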

How the data were processed

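Gene-by-cell UMI counts of a 10x 3′ single-cell experiment were used as deposited. The authors made these counts with Cell Ranger (7.1.0 per the file headers, 7.1.1 in the submitters' processing notes) on mm10, and no normalization was applied to them. Cells with at least 200 genes, at least 500 UMIs and at most 10% mitochondrial UMIs were kept, and barcodes found in both libraries were left out. The study also set upper limits of 10000 genes and UMIs, tried here as an alternative. No doublet caller was run, and cells with another lineage within 2-fold stayed unnamed.

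UMIs were summed per lineage and library and divided by all UMIs of that lineage. Ratios of TSK over WT carry exact conditional intervals, levels exact Poisson and shares exact Clopper-Pearson intervals (95%), and zero counts a limit of 3. No p-value was computed, since each genotype had 1 library. Cells were also clustered without the 8 genes (2000 variable genes, 30 principal components, 20 neighbours, Leiden resolution 1), and 135 of 169 WT and 288 of 359 TSK macrophages lay in the clusters named macrophage by the same markers.

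The 8 genes and the lists were chosen with earlier results of these data known. The genes named were the 8, the highest and lowest of each list in the macrophage ratio and the 3 genes most like each, of which a few are not reported here, and those added after their values were seen are all other list genes and the endothelial genes. Gene positions came from GENCODE M21 (32158 of 32285 identifiers matched, 99.6%) and promoters from RefSeq. Intervals were tested on simulated data. Python 3.11.15, numpy 2.4.6, pandas 2.3.3, scipy 1.17.1, scikit-learn 1.9.0, leidenalg 0.10.2 and matplotlib 3.10.9 were used.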

Additional observations from a re-analysis of the deposited data

Results flagged for a closer look

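For 7 pairs of gene and lineage, the log2 ratio of TSK over WT lay below 0 where that of macrophages lay above 0, with both counting intervals clear of 0. These differences were not tested, since each genotype had 1 library. Apoe was at 0.49 in macrophages, but at -0.27 in fibroblasts, -2.63 in endothelial cells and -1.51 in cancer cells. The share of cancer cells with an Apoe UMI was 33.7% in WT and 38.9% in TSK. Cd36 was at 0.93 in macrophages and -3.53 in endothelial cells. Abca1 was at 0.34 in macrophages, -0.84 in endothelial cells (-0.16 without cells over 10000 UMIs) and -0.94 in cancer cells. Plin2 was at 0.64 in macrophages and -0.40 in cancer cells.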

How the results depend on the processing

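No paired analysis was possible because each genotype had 1 library. Of the log2 ratios of single genes in macrophages, that of Lpl, 0.21 with an interval that includes 0, was -0.25 when cells counted equally and -0.50 without resident-marker cells. It was -1.64 without cells that had a T cell, neutrophil, fibroblast, endothelial or cancer cell marker UMI. Among genes whose interval excludes 0, the direction reversed for Cd36 without cells over 10000 UMIs (-0.012) and when each cell counted equally (-0.0063), and for Plin2 without the cells with such marker UMIs (-0.34), and the cause was not tested. The median over the 8 genes, 0.59, was 0.40 with equal weight and 0.41 when scaled by the median of gene ratios, which moved all genes by 0.18. It was 0.17 without the cells with such marker UMIs, where the median of all genes was 0.08. In that setting 1 of the 8 genes, Lpl, was lower by at least 2-fold, against 3.22% of 2083 genes. With monocytes counted as macrophages 2 of the 8 were higher by at least 2-fold, against 6.09% of all genes. In the macrophages alone, 4 of the 8 were higher by at least 1.5-fold, against 17.7%. The share of genes past 2-fold was 2.29% higher and 0.824% lower with a minimum of 200 UMIs, and 12.3% and 6.61% with at least 1 UMI in each library. The median over the 8 genes of the percent of UMIs from macrophages, 31.6 in WT and 49.2 in TSK, was 22.7 in WT and 62.1 in TSK without cells over 10000 UMIs. In WT it was 27.3 with shared barcodes kept, 45.7 with clusters and 45.3 with monocytes counted. The median percent of macrophages with a UMI, 17.6 in WT and 21.7 in TSK at 1000 UMIs, was 26.3 and 36.7 at 2000 UMIs and 54.4 and 59.5 without thinning. Leaving out the top cell of each library, and all alternatives for endothelial cells, were chosen after seeing the data. Depth limits Gpnmb, with 10 WT UMIs, and endothelial Lpl, with 8 TSK UMIs. Leaving out a replicate could not be tried with 1 library per genotype.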

Other observations

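Among list genes under the minimum of 50 UMIs, Marco, a scavenger receptor, had 1 UMI in WT and 47 in TSK macrophages, and Bhlhe41, a transcription factor, had 6 and 37. Of the 14 other genes known from lipid-associated macrophages that had at least 50 UMIs, 11 were above and 3 below 0 (Itgax at -0.95, Ctss at -0.10 and Axl at -0.01). Of all 7757 genes compared in macrophages, 67.3% were above 0. Among the 11 list genes above 0, Spp1, osteopontin, stood at 1462 and 2312 CPM, Lgals3, galectin-3, at 1088 and 1688, and Cd9, a tetraspanin, at 95.2 and 172. Lipa of the lipid droplet list, the lysosomal acid lipase, stood at 82.1 and 130.1. These genes were picked after their values were seen. Of the named macrophages, 15 WT and 65 TSK cells fell in a cluster of low depth, with a median of 1510 UMIs, whose leading genes were the mast cell genes Mcpt4, Cma1, Tpsb2 and Cpa3, while the mast cell list summed to 1.75 and 0.350 CPM in the named macrophages. Another 19 WT cells and 1 TSK cell fell in a cluster led by monocyte genes. When macrophages were taken from clusters, the log2 ratio of Gpnmb was 2.28, of Apoe 0.85 and of Trem2 0.83.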
